A study of Mus musculus with 10 samples.

Results

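The genes of the mitochondrial ribosomal proteins were taken as all genes whose symbol starts with Mrpl or Mrps followed by a digit. Of 78 such genes in a RefSeq table of mouse genes, 76 had at least 1 probe set annotated to them alone on the array, and these 76 are described here, out of 18193 genes measured. Mrpl30 and Mrpl53 shared all their probe sets with another gene and are given apart. Each gene was read from its brightest own probe set, judged by the mean of all 10 arrays, so no measured difference entered the choice. The 76 genes had 156 probe sets of their own, 34 genes with 1 and 42 with several, and lie on 17 chromosomes, with at most 11 on a single one. No filter on low signal was applied, so all 76 were tested.

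Keratinocytes, which build the epidermis, had been put in primary culture from the skin of mice labelled Sgpp1-/- (KO) or Sgpp1+/+ (WT). Sgpp1 encodes sphingosine-1-phosphate phosphatase 1, which removes the phosphate from a signalling lipid. All cultures, of either genotype, had been kept for 3 to 4 days in EMEM with 0.05 mM calcium and 8% fetal calf serum, a medium that usually holds mouse keratinocytes in a basal, dividing state. There were 5 KO arrays, numbered 8, 9, 10, 21 and 23, and 5 WT arrays, numbered 1 to 5; all were Affymetrix expression arrays. The labels give no strain, age or sex, do not say how Sgpp1 was disrupted, and do not say whether the 5 samples of a group came from separate animals or cultures, so the p-values measure the spread between these samples, which may be technical.

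Mitochondria carry their own ribosomes, which translate the few messages of the mitochondrial genome into core subunits of the respiratory chain. Their ribosomal RNAs are made inside the organelle, but all their proteins are encoded in the nucleus, made in the cytosol and imported. The small subunit (mostly Mrps genes) binds and decodes the message, and the large subunit (mostly Mrpl genes) joins the amino acids. Some of these proteins have counterparts in bacterial ribosomes and others are found in mitochondria alone. In the epidermis, keratinocytes lose their mitochondria and nuclei as they cornify.

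Values are log2 signals, and differences are KO minus WT on that scale, so that a difference of 1 is 2-fold. Array medians lay between 5.02 and 5.16, and WT 1 was the array least like the others: its correlation across all probe sets averaged 0.955, against averages of 0.967 to 0.977 for the other 9. The targeted gene was not lower in KO: its brightest probe set read 8.46 to 9.03 on the KO arrays and 6.25 to 8.33 on the WT arrays, with no overlap (difference 1.15, exact permutation p = 0.00794, two-sided, the smallest that 5 against 5 can give), and its limma adjusted p over all genes was 0.102. Whether these probes lie in the disrupted part is unknown, so KO and WT stand for arrays labelled so. Of 11 keratinocyte markers 0 were called between genotypes, where 2.30% of all genes were called higher and 0.346% lower. Their differences ran from -0.50 (Epcam) to 0.55 (Krt15) with a median of 0.20. Among the basal keratins, Krt5 was at 12.73 ± 0.10 in KO and 12.78 ± 0.06 in WT, and Krt14 was at 12.72 ± 0.04 in KO and 12.69 ± 0.14 in WT (SD, n = 5 each). All 12 markers of spinous and cornified cells, Krt1 and Krt10 among them, were called higher in KO, against 2.30% of all genes.

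No mitochondrial ribosomal protein gene passed the test between genotypes. By limma with Benjamini-Hochberg adjustment over 18193 genes at a threshold of 0.05, 0 of 76 were higher in KO, where 2.30% of all genes were, and 0 of 76 were lower, where 0.346% of all genes were. At an unadjusted p under 0.05, 6 of 76 were lower, against 5.65% of all genes, and 0 were higher, against 7.33%. The smallest adjusted p was 0.121. The differences were small and mostly below 0: 57 of 76 (75.0%) were negative, as were 52.4% of all genes, and their median was -0.16, against -0.01 over all genes. The largest in size was 0.96, 2 exceeded 0.5 and 49 were under 0.25. The 95% interval of the fit lay wholly within 2-fold in either direction for 74 of the 76, so the arrays leave room for modest differences in most of these genes but not for large ones. Since RMA brings all arrays to a common distribution, a shift shared by most genes of the cell would not be seen, and in a culture of mixed cells fewer cells of a type and less RNA per cell cannot be told apart.

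**Figure D1:**
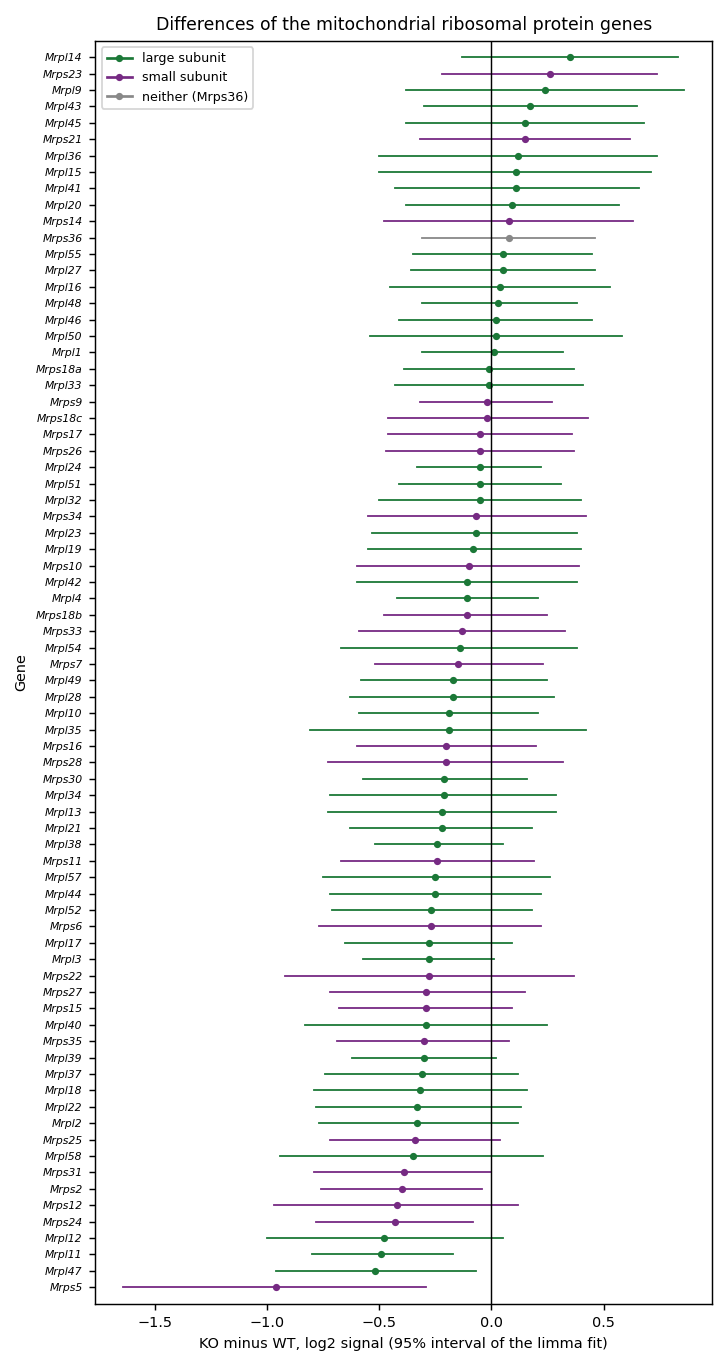
Difference KO minus WT in log2 signal (horizontal axis) for the 76 genes (vertical axis, from the highest difference to the lowest), with bars for the 95% interval of the limma fit over 5 KO and 5 WT arrays and colours for the ribosomal subunit. Differences ran from 0.35 for Mrpl14 to -0.96 for Mrps5, and 70 of the 76 intervals hold 0.

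Mrps5 had the largest difference. It encodes a small subunit protein of a bacterial family that lies close to the decoding site. It read 9.07, 8.04, 8.30, 7.62 and 8.12 on KO 8, KO 9, KO 10, KO 21 and KO 23, and 10.19, 9.33, 8.67, 8.68 and 9.10 on WT 1 to WT 5. The groups overlapped, since KO 8 lay above WT 3 and WT 4, and WT 1 was the highest of all arrays. This is a difference of -0.96 (SE 0.31), or 1.95-fold lower in KO, at a limma adjusted p of 0.160, and without WT 1 it was -0.72 with an adjusted p of 0.227. The other 4 probe sets of Mrps5 were all lower in KO as well, by -0.42, -0.27, -0.40 and -0.53 from the brightest to the dimmest, and none passed.

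Mrpl11 was the 1 gene of the 76 whose groups did not overlap, with KO lower, as in 1.02% of all genes, and 0 of 76 did not overlap with KO higher, where 3.36% of all genes did. Its product sits at the base of the stalk of the large subunit, where translation factors bind. It read 9.04, 8.87, 8.83, 8.52 and 9.19 on KO 8, KO 9, KO 10, KO 21 and KO 23, and 9.43, 9.35, 9.25, 9.31 and 9.56 on WT 1 to WT 5. KO 23, the highest KO array, was just below WT 3, the lowest WT array. KO minus WT was -0.49 (SE 0.14, limma adjusted p = 0.121). The next brightest probe set also separated the groups, at 8.68 ± 0.13 in KO and 9.01 ± 0.12 in WT (SD, n = 5 each), while the dimmest 2 of its 4 probe sets differed by -0.27 and 0.01 and overlapped. When limma weighted each array by its agreement with its group, Mrpl11 and Mrpl47 passed with adjusted p of 0.0312 and 0.0482. Those 2 of 76 stand against 3.08% of all genes called lower and 4.82% called higher by that fit. In it WT 1 had the lowest weight, 0.227, and WT 4 the highest, 2.46. The KO weights were 0.665, 2.17, 1.8, 0.883 and 0.71 on KO 8, KO 9, KO 10, KO 21 and KO 23.

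Mrpl47, a large subunit gene whose product lies near the exit of the peptide tunnel, read 7.17, 6.60, 6.90, 6.74 and 7.71 on KO 8, KO 9, KO 10, KO 21 and KO 23, and 7.32, 7.74, 7.39, 7.45 and 7.82 on WT 1 to WT 5. KO 23 lay among the WT arrays and the other 4 KO arrays below all of them. KO minus WT was -0.52 (SE 0.20, limma adjusted p = 0.275). Its 2 other probe sets, both dim, differed by -0.12 and 0.02.

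Of the other small subunit genes low in KO, Mrps24, whose product belongs to the family at the message entry channel, averaged 8.36 ± 0.25 in KO and 8.79 ± 0.24 in WT (SD, n = 5 each; difference -0.43, limma adjusted p = 0.249). Another probe set of Mrps24 differed by 0.04. Mrps2 averaged 8.06 ± 0.21 in KO and 8.46 ± 0.29 in WT, and its difference of -0.40 was -0.30 without WT 1, its highest array. Mrps31, a mitochondria-specific member, averaged 7.12 ± 0.33 in KO and 7.52 ± 0.25 in WT, with KO 8 and KO 23 inside the WT range. Mrps12, from the family at the decoding centre that carries streptomycin resistance mutations in bacteria, averaged 7.63 ± 0.47 in KO and 8.05 ± 0.43 in WT, and its difference of -0.42 was -0.24 without KO 21 and -0.26 without WT 2. Mrpl12, the stalk protein that recruits translation factors, averaged 7.34 ± 0.56 in KO and 7.82 ± 0.26 in WT, and KO 8, at 8.12, read higher than 4 of the WT arrays. None of these 5 passed, and with Mrps5, Mrpl11 and Mrpl47 they are the 8 genes with the lowest differences.

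The 8 highest differences were smaller. Mrpl14, from a family at the interface of the subunits, read 6.51, 5.25, 5.62, 5.58 and 5.85 on KO 8, KO 9, KO 10, KO 21 and KO 23, and 5.27, 5.79, 5.49, 5.04 and 5.46 on WT 1 to WT 5. KO 8 stood above all other arrays, and without it the difference of 0.35 (SE 0.22, limma adjusted p = 0.592) was 0.16. Mrps23, a mitochondria-specific small subunit gene, read 7.75, 6.95, 6.93, 6.39 and 7.21 on KO 8, KO 9, KO 10, KO 21 and KO 23, and 6.42, 6.96, 6.79, 6.76 and 6.98 on WT 1 to WT 5. KO 8 and KO 23 were its highest arrays and KO 21 its lowest, below WT 1, and its difference of 0.26 was 0.09 without KO 8. Mrpl9, Mrpl43, Mrps21, Mrpl45, Mrpl36 and Mrpl41 followed with differences of 0.24 to 0.11. Mrpl45 encodes the protein that anchors the ribosome to the inner membrane, and it read 5.96 on WT 1 against 6.37 to 7.28 on the other WT arrays. Of these 8, Mrpl14, Mrps23 and Mrpl43 stayed above 0 in each alternative that kept them, and the other 5 were below 0 in at least 1.

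**Figure D2:**
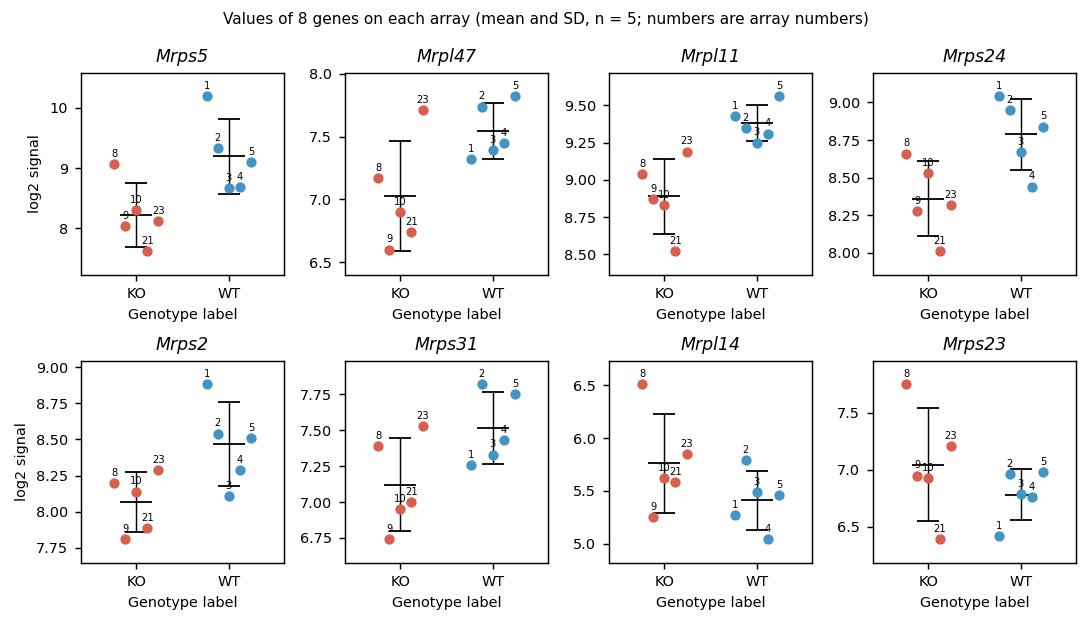
log2 signal (vertical axis, a scale of its own in each panel that does not start at 0) on each array for 8 genes, KO on the left and WT on the right, with the array number beside each point and bars for the mean and SD of 5 arrays. In Mrpl11 all KO points lie below all WT points, and in the other 7 genes the groups overlap.

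Promoters of 6 genes are printed here, from RefSeq's table on GRCm38.p6, each running from 250 bases before to 50 bases after the start of the gene, 5′ to 3′ on the gene's strand. Mrps5 (chr2:127587176-127587475, plus strand) and Mrpl11 (chr19:4962056-4962355, plus strand) are shown because they had the largest difference and the separated groups. Mrps23 (chr11:88204138-88204437, plus strand) and Mrpl14 (chr17:45686099-45686398, plus strand) had the highest differences. Mrps12 (chr7:28741772-28742071, minus strand) and Mrpl17 (chr7:105811038-105811337, minus strand) each hold a combination of the motifs counted further on. Capitals mark matches to any of 5 motifs, searched on both strands: CCGGAAG, the core bound by ETS factors such as the subunit Gabpa; GCGC, any base and TGCGC, a site of NRF1; AAGATGG, part of the YY1 motif; CACGTG, the E-box of Myc and Max; and TATAAA.
Mrps5: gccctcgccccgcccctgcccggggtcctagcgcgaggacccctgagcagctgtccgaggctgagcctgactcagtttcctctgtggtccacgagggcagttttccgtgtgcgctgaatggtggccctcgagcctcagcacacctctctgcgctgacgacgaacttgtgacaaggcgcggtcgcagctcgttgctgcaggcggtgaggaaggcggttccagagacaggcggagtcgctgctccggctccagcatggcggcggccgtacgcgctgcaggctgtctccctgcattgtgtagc
Mrpl11: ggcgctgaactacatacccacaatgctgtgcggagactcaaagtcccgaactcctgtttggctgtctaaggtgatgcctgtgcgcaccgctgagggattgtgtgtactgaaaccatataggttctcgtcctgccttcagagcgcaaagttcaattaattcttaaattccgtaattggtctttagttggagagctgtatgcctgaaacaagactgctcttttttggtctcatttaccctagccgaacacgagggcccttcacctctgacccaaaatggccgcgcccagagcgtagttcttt
Mrps23: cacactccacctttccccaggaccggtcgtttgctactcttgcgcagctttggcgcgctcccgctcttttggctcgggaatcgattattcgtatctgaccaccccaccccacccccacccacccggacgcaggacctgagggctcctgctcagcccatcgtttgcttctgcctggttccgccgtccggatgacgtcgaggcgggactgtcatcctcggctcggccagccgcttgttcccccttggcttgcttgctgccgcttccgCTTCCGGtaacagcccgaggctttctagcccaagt
Mrpl14: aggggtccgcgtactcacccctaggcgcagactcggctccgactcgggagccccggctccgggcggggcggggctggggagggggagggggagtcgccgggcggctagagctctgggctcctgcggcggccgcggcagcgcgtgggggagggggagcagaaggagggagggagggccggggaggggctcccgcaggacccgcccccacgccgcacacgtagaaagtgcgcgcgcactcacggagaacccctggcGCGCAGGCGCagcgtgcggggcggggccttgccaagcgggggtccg
Mrps12: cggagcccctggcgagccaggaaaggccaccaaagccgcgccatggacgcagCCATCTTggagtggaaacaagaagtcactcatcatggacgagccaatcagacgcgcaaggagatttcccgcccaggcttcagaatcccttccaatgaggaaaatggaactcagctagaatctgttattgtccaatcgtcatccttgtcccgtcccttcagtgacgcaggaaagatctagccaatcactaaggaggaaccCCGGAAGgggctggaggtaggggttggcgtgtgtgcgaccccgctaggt
Mrpl17: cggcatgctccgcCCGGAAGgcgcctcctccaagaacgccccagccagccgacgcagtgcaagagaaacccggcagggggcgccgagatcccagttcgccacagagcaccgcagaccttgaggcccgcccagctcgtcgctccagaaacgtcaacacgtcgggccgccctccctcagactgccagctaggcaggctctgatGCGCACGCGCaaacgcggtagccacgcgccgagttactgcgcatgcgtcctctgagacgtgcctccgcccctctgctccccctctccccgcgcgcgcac
Mrps5 and Mrpl11 had none of the 5 strings in this window. Mrps23 had the ETS core on the opposite strand at position 16 after the start. Mrpl14 had the NRF1 string on the opposite strand at position 5. Mrps12 had the ETS core at position 2 and the YY1 string on the opposite strand at position -198, and Mrpl17 had the ETS core at position -237 and the NRF1 string, on the opposite strand, at position -49. Negative positions lie before the start. A match is only a match of letters.

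Across the family, 67 of the 76 genes had a promoter in the table, 73 windows in all. The ETS core stood in 25 of the 73 (34.2%), against 8.86% of all 32851 promoters and 11.6% of the 21263 promoters of protein-coding genes. The NRF1 string stood in 12 (16.4%), against 4.60% and 6.38%, and the YY1 string in 13 (17.8%), against 6.34% and 6.24%. Of the 67 genes, 41 held at least 1 of these 3. The share of all promoters that did so is not given here, so this count alone shows no excess. The motifs were picked from a wider set of strings after their values were seen. The E-box stood in 9.59% of the members' windows, against 7.15% and 7.84%, and TATAAA in 6.85%, against 13.6% and 12.6%. The median GC content was 58.7% in the members' windows and 56.3% in those of protein-coding genes. By motif, the median difference between genotypes was -0.20 in the 25 genes with the ETS core and -0.16 in the 42 without, -0.05 in the 12 with the NRF1 string and -0.17 in the 55 without, and -0.19 in the 13 with the YY1 string and -0.12 in the 54 without. It was -0.02 in the 5 genes with the E-box and -0.17 in the 62 without, and 0.02 in the 5 with TATAAA and -0.18 in the 62 without. These medians were not tested against each other.

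The clearest pattern in these genes was between arrays of the same genotype. For each gene the mean of its 10 values was subtracted, and the mean over the 76 genes was then 0.27 on KO 8, -0.23 on KO 9, -0.19 on KO 10, -0.51 on KO 21 and 0.29 on KO 23, and -0.19, 0.31, 0.01, -0.02 and 0.25 on WT 1 to WT 5. The KO arrays thus spanned nearly the whole range, with KO 8 and KO 23 close to WT 2 and WT 5. Nearly the whole family took part: 71 of 76 genes were above their own mean on KO 23, 65 on KO 8, 71 on WT 2 and 67 on WT 5, against 6 on KO 9, 8 on KO 10 and 1 on KO 21. Over all 18193 genes these shares lay between 40.0% and 58.7% on every array. Among the KO arrays, the mean over all genes was likewise highest on KO 23 (0.07) and KO 8 (0.06) and lowest on KO 21 (-0.09).

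KO 21 was the lowest of the 10 arrays in 50 of 76 genes (65.8%), where it was lowest in 17.0% of all genes. WT 1 was lowest in 15 (19.7%), against 19.1% of all genes. KO 8 and KO 23 were the highest in 19 genes each (25.0%), against 12.3% and 12.1% of all genes. WT 5 was the highest in 17 (22.4%), against 10.4%, and WT 2 in 14 (18.4%), against 11.4%. WT 1 was the highest in 5 (6.58%), against 25.5% of all genes. In 65 of 76 genes (85.5%) KO 8 and KO 23 both lay above KO 9, KO 10 and KO 21, an order found in 23.3% of all genes. In 20 (26.3%) the arrays KO 9, KO 10 and KO 21 all lay below every WT array, against 7.78% of all genes. In 40 (52.6%) the arrays KO 9, KO 10 and KO 21 all lay below WT 2 to WT 5, against 12.7% of all genes. These orders were picked after the values were seen and carry no test. The 1 gene above its mean on KO 21 was Mrpl24, which also varied least, with an SD of 0.14 over the 10 arrays, while Mrps5 varied most, with 0.75.

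Gene by gene, the spread exceeded that of all genes within the KO group but not within WT. The median SD of the 76 genes over the 5 KO arrays was 0.39 and over the 5 WT arrays 0.28, against 0.25 and 0.30 over all genes, and the median standard error of their differences was 0.21 against 0.18. The mean over the 76 genes varied in both groups. Its SD was 0.35 over the KO arrays and 0.20 over the WT arrays, against 0.07 and 0.03 for the mean over all genes. Without KO 21 the median difference of the family was -0.04, without WT 2 it was -0.10, without KO 8 it was -0.23 and without KO 23 it was -0.25. The size of the median therefore rested on single arrays, and its sign was the same in all 10 such fits. The count of genes below 0 rested on single arrays too. It was 57 of 76 with all arrays, 43 without KO 21, 48 without WT 2 and 70 without WT 1.

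**Figure D3:**
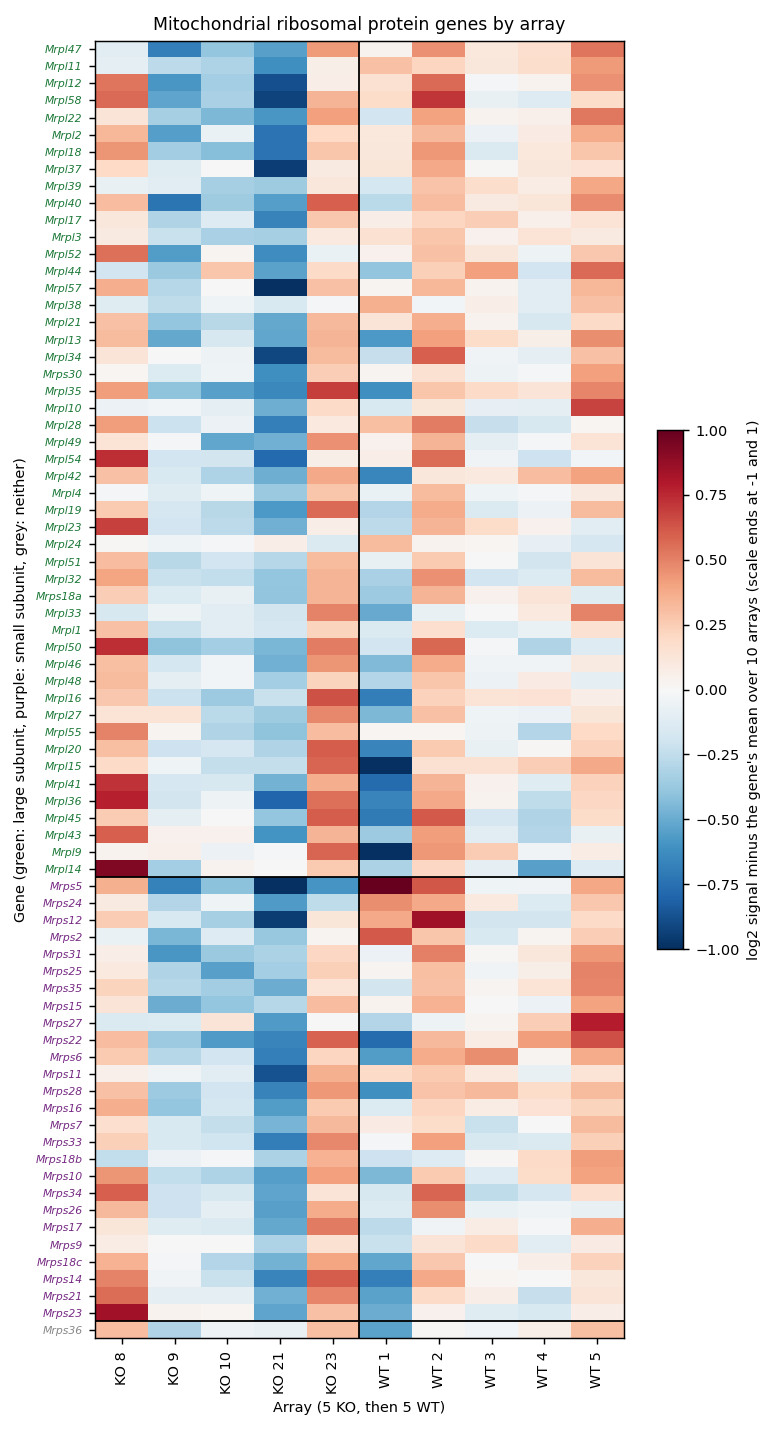
log2 signal minus each gene's mean over the 10 arrays (colour, from -1 in blue to 1 in red, with values beyond shown at the end colours), for the 76 genes in rows, grouped by subunit and ordered by difference, and the 10 arrays in columns, KO on the left. Columns KO 9, KO 10 and KO 21 are mostly blue, and columns KO 8, KO 23, WT 2 and WT 5 mostly red.

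Other measures varied over the arrays too, and their part in this pattern was not tested. A list of 15 proliferation markers had means of 0.34, -0.61, -0.76, -0.79 and 0.15 on KO 8, KO 9, KO 10, KO 21 and KO 23, and 0.07, 0.46, 0.03, 0.36 and 0.75 on WT 1 to WT 5. KO 9, KO 10 and KO 21 were thus the 3 lowest arrays in this list, and in the ribosomal genes KO 21 and KO 9 were the lowest, with KO 10 level with WT 1. All 15 markers had negative differences, against 52.4% of all genes, and 11 were lower at an unadjusted p under 0.05, against 5.65%. Of the 15, 1, Mki67, was called lower in KO, against 0.346% of all genes. The 12 spinous and cornified markers had means of 0.90, 1.32, 1.09, 1.20 and 0.82 on the KO arrays in the same order, with KO 8 and KO 23 the lowest of the KO arrays, and -1.30, -1.11, -0.56, -1.40 and -0.96 on WT 1 to WT 5. The Gapdh control probe sets at the 3′ end exceeded those at the 5′ end by 1.63, 1.96, 2.10, 2.10 and 1.72 on KO 8, KO 9, KO 10, KO 21 and KO 23, and by 1.72 to 2.01 on the WT arrays. A larger excess is a sign of shorter RNA or cDNA, and KO 8 and KO 23 had the smallest of the KO arrays. The same measure of the actin control did not follow this order, at 0.21, 0.21, 0.16, 0.18 and 0.26 on the KO arrays in the same order and 0.17 to 0.29 on the WT arrays. Poly-A spike-in signal was highest on WT 1 (11.42), KO 8 (11.12) and WT 2 (10.82), and at most 10.51 on the other 7 arrays.

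Markers of other cells varied between arrays too, and their part in the pattern was not tested. The 8 fibroblast markers had means of -0.92 to 0.65 on the KO arrays and -1.21 to 2.18 on the WT arrays, highest on WT 3 and WT 4, where the ribosomal genes stood at 0.01 and -0.02. The 8 melanocyte markers had means of -0.49 to 1.08 on the KO arrays and -1.80 to 1.25 on the WT arrays, highest on WT 5 and KO 23 and lowest on WT 1. The 8 myeloid and Langerhans, 6 endothelial and 6 muscle markers were dim, with mean levels of 4.29, 3.83 and 4.33. The endothelial list had means of -0.07, -0.14, -0.32, -0.22 and 0.29 on KO 8, KO 9, KO 10, KO 21 and KO 23, with KO 8 and KO 23 above the other KO arrays as in the ribosomal genes, and 0.27, -0.10, 0.16, 0.14 and 0.00 on WT 1 to WT 5. The myeloid list was highest on WT 5 (0.52) and KO 23 (0.39) and lay between -0.38 and 0.18 elsewhere, and the muscle list was highest on WT 3 (1.27) and WT 4 (0.90). None of these 36 markers was called between genotypes, where 2.30% of all genes were called higher and 0.346% lower.

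Related gene families showed the array pattern to different degrees. The 81 nuclear genes of the respiratory chain belong to complexes most of which contain products of mitochondrial translation. These 81 genes had means of 0.22, 0.00, -0.07, -0.29 and 0.28 on KO 8, KO 9, KO 10, KO 21 and KO 23. On WT 1 to WT 5 their means were -0.38, 0.15, 0.06, -0.04 and 0.07. The 46 cytosolic ribosomal protein genes had 0.15, -0.02, 0.03, -0.16 and 0.17 on the same KO arrays, and -0.29, 0.07, 0.02, -0.02 and 0.05 on WT 1 to WT 5. In both families KO 8 and KO 23 were the highest arrays and KO 21 the lowest KO array, with smaller excursions in the cytosolic family. Their median differences were 0.05 and 0.08, with 30 of 81 and 10 of 46 genes below 0, against 52.4% of all genes. In both families 0 genes were called in either direction, where 2.30% of all genes were called higher and 0.346% lower. That these medians lie above 0 and that of the mitochondrial ribosome below it was not tested.

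**Figure D4:**
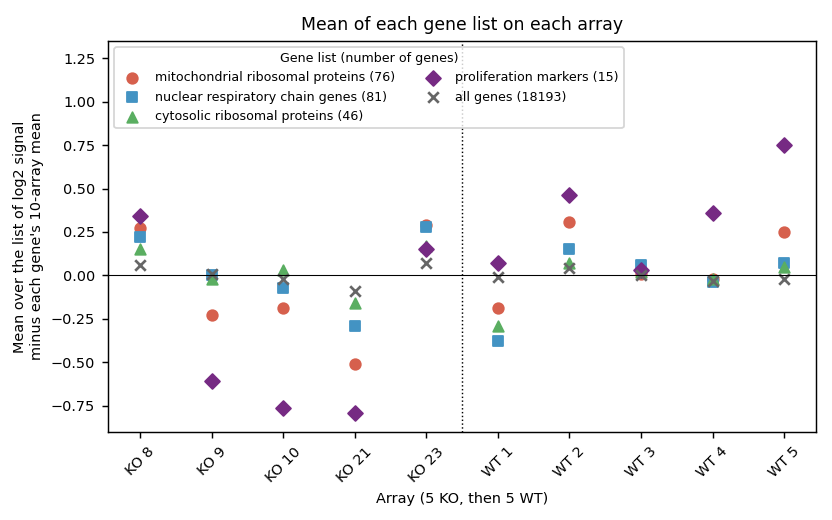
Mean over each gene list (colour and symbol) of the log2 signal minus each gene's mean over 10 arrays (vertical axis), on each array (horizontal axis, KO on the left and WT on the right). The mitochondrial ribosomal genes ran from -0.51 on KO 21 to 0.31 on WT 2, while the mean over all genes stayed between -0.09 and 0.07.

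Both subunits shared the pattern. The 49 genes of the large subunit, which include Mrps30 and Mrps18a in spite of their symbols, had a median difference of -0.14, with 34 below 0. The 26 genes of the small subunit had a median of -0.20, with 23 below 0, and 4 of them and 2 of the large subunit genes were among the 6 with an unadjusted p under 0.05. The means on KO 21 were -0.49 for the large and -0.56 for the small subunit, and those on KO 23 were 0.31 and 0.25. The 47 genes of bacterial families, in which Mrps18a, Mrps18b and Mrps18c were all counted, had a median of -0.15, and the 28 mitochondria-specific genes -0.19. Mrps36, whose product is now known as a part of the 2-oxoglutarate dehydrogenase complex and not of the ribosome, averaged 7.53 ± 0.26 in KO and 7.45 ± 0.31 in WT (SD, n = 5 each).

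Signals of the 76 probe sets, as means over the 10 arrays, lay between 5.59 and 10.30 with a median of 7.85, and 75 were above the median of all genes, 5.71. The exception, and the dimmest, was Mrpl14, with Mrpl54, Mrps11, Mrpl38 and Mrpl10 next above it. Probe sets differ in how well they bind, so this order is not an order of transcript abundance. The brightest 5 were those of Mrpl39, Mrpl52, Mrpl51, Mrps18b and Mrpl42, and their differences ran from -0.30 to -0.05. Mrpl39 averaged 10.15 ± 0.20 in KO and 10.45 ± 0.21 in WT, and Mrpl52 averaged 10.04 ± 0.48 in KO and 10.30 ± 0.14 in WT (SD, n = 5 each).

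The other 80 probe sets of 42 genes were also compared between genotypes. Of these, 54 had the sign of the brightest probe set of their gene, their median difference was -0.09, and 0 passed adjusted over all 34945 probe sets with 1 gene, of which 1.54% were called higher and 0.223% lower. At an unadjusted p under 0.05, 6 of the 80 were lower in KO and 0 higher, where 5.35% of all probe sets were lower and 6.27% higher. The 6 were 3 of Mrps5 and 1 each of Mrpl11, Mrpl28 and Mrpl3. Some genes had probe sets of opposite sign: in Mrpl19 the 2 after the brightest differed by -0.33 and 0.43, in Mrps25 the brightest differed by -0.34 and a dimmer one by 0.30, and in Mrpl9 the brightest differed by 0.24 and the next by -0.35. No probe set of opposite sign passed. Of the probe sets shared with other genes, the brighter one of Mrpl30 with Gm6238 read 9.21 ± 0.36 in KO and 9.22 ± 0.29 in WT. The dimmer one read 4.47 ± 0.10 in KO and 4.27 ± 0.31 in WT. That of Mrpl53 with Ccdc142 read 7.49 ± 0.31 in KO and 7.50 ± 0.26 in WT. One of Mrps34 with Nme3 read 4.92 ± 0.50 in KO and 4.89 ± 0.12 in WT (SD, n = 5 each throughout).

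**Figure D5:**
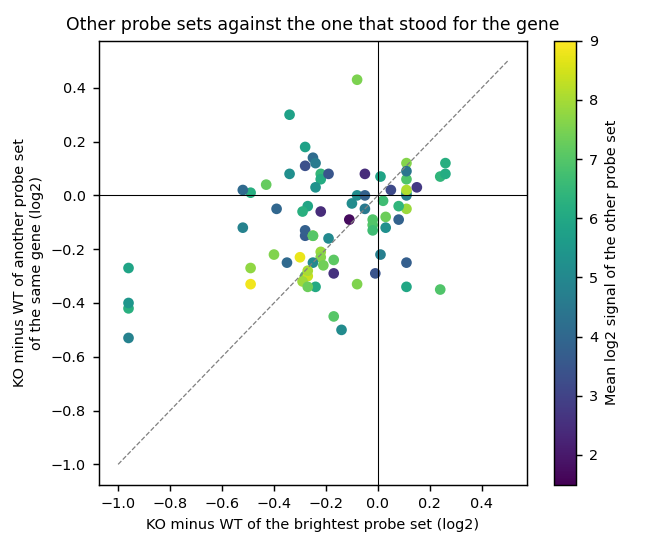
Difference KO minus WT of each of 80 further probe sets (vertical axis) against that of the brightest probe set of the same gene (horizontal axis), both in log2 signal, coloured by mean signal, with a dashed line of equal values. Of the 80 points, 54 lie on the same side of 0 on both axes, and the 4 points at -0.96 on the horizontal axis belong to Mrps5.

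The other genes of the pathway, 100 different genes in 6 lists, gave 0 calls in either direction, where 2.30% of all genes were called higher and 0.346% lower. At an unadjusted p under 0.05, 1 was higher and 4 were lower, against 7.33% and 5.65% of all genes. Among ribosomal proteins with symbols of another kind, Dap3, Ptcd3, Chchd1 and Gadd45gip1 differed by -0.23, -0.26, -0.30 and -0.41, and none passed. Without KO 21 the differences of Dap3, Chchd1 and Gadd45gip1 were -0.13, -0.15 and -0.21. Dap3, a small subunit protein that binds GTP, averaged 8.00 ± 0.29 in KO and 8.23 ± 0.22 in WT, and Gadd45gip1, a large subunit protein, averaged 7.01 ± 0.51 in KO and 7.42 ± 0.40 in WT (SD, n = 5 each). The 16 translation factors had a median difference of -0.03, and the smallest p in them was that of Oxa1l, the insertase for the products of these ribosomes, at -0.24 (limma adjusted p = 0.595), or -0.14 without KO 21. Tufm, the elongation factor that brings transfer RNAs, differed by -0.10. The 19 mitochondrial aminoacyl-tRNA synthetase genes had a median of -0.01, and Sars2, for serine, differed by -0.41 (limma adjusted p = 0.486), and by -0.21 without WT 1.

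Among 27 genes for ribosome assembly and rRNA modification the median was -0.06, and the GTPase gene Gtpbp10, needed to mature the large subunit, averaged 7.21 ± 0.25 in KO and 7.63 ± 0.15 in WT (SD, n = 5 each; limma adjusted p = 0.217). The 21 genes of mitochondrial transcription and RNA processing had a median of -0.08 and Tbrg4, a mitochondrial RNA-binding protein gene of the FASTK family, differed by -0.32 (limma adjusted p = 0.381). The 14 regulators of nuclear genes for mitochondria had a median of 0.11, with 4 genes below 0. Max, the partner of Myc, averaged 7.74 ± 0.19 in KO and 7.38 ± 0.16 in WT (limma adjusted p = 0.261, and 0.0427 with array weights, a fit that called 4.82% of all genes higher). Myc differed by 0.18, Gabpa by 0.21, Yy1 by 0.27 and Nrf1 by -0.15, and none passed. The means of this list lay within -0.01 to 0.09 on the KO arrays and -0.10 to 0.05 on the WT arrays, a narrower span than that of the ribosomal genes. The other pathway lists varied more. On KO 8, KO 21, KO 23 and WT 5 the translation factors stood at 0.20, -0.25, 0.28 and 0.22. The transcription and RNA processing genes stood at 0.10, -0.29, 0.30 and 0.34, and the assembly genes at 0.08, -0.31, 0.23 and 0.18. The synthetases stood at -0.03, -0.14, 0.20 and 0.23, and the mitoribosome genes of other symbols at -0.06, -0.53, 0.25 and 0.49. On KO 9, KO 10, WT 1 and WT 2 the translation factors stood at -0.19, -0.13, -0.16 and 0.16. The transcription and RNA processing genes stood there at -0.26, -0.09, -0.24 and 0.12, and the assembly genes at -0.12, 0.00, -0.13 and 0.16. The synthetases stood there at -0.12, -0.04, -0.01 and 0.06, and the mitoribosome genes of other symbols at -0.28, -0.13, 0.11 and 0.11.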

How the data were processed

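The deposited values are log2 signals of single arrays. The submitters' processing notes name RMA, which corrects background, equalises the distribution of the arrays and combines the probes of a set, and it shrinks differences near background. The RMA version is not given in the sources used here. Per the labels' protocols, cRNA was made from 6 µg of total RNA. The values, from 1.13 to 14.92, were used as deposited, from all 10 columns and with 0 left out. Precision is limited by there being 5 arrays a group.

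Of 45101 probe sets, 64 are controls, 34945 were annotated to 1 gene, 932 to several and 9160 to none. For 34741 of the 34945 the gene ID was found in the RefSeq table (GRCm38.p6), which gave current symbols. The brightest probe set stood for each of 18193 genes. KO minus WT was fitted with limma 3.58.1 in R 4.3.3 (lmFit, eBayes, two-sided), with Benjamini-Hochberg adjustment over all genes. SE is the moderated standard error. On simulated arrays of 18193 genes, 98.0% of changes of 2 on the log2 scale and 70.0% of changes of 1 were recovered, with 9 false calls. The changed genes were random ones, and noise was drawn independently for each gene, without the array shifts that the members share. Recovery of smaller changes, the size of most member differences, was not simulated. For Sgpp1 an exact permutation test used all 252 assignments. Single members were named by rule: the 8 highest and 8 lowest differences, the 5 brightest and 5 dimmest probe sets, called genes, the gene with the smallest p in each pathway list, and the mitoribosome genes of other symbols. Other genes named, and the 5 motifs, which came from a wider set of short strings counted, were chosen after their values were seen. The members and lists were chosen with earlier results of these data known. KO and WT share no array number, so nothing was paired. A running number in the sample titles goes from 1 to 5 for WT and from 6 to 10 for KO. The titles do not say what it stands for, and whatever it orders cannot be told apart from genotype. Alternatives were another rule for probe sets, 2 normalizations, a filter on dim genes, another variance model, array weights and leaving out arrays.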

Additional observations from a re-analysis of the deposited data

Results flagged for a closer look

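Over 25 named members and the mean of the family, each in KO and in WT, 3 of 52 groups of 5 arrays held a value far from the other 4 by Dixon's criterion. Chance gives about 1 in 20 in independent groups. These groups share the same 10 arrays and their genes vary together, so no conclusion is drawn from the count. Mrpl9 read 8.32 on KO 23 against 7.68 to 7.79 on the other KO arrays, and 6.41 on WT 1 against 7.70 to 8.17 on the other WT arrays. Mrpl42, whose product is a protein of the large subunit, read 9.01 on WT 1 against 9.76 to 10.06 on the other WT arrays.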

How the results depend on the processing

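Over 17 alternatives, 0 members were called higher in KO in each, and 0 lower in 16. With array weights 2 were lower (Mrpl11, -0.47, and Mrpl47, -0.62) and 1 gene of the pathway lists, Max (0.46), was called. That fit called 877 genes higher and 561 lower, against 419 and 63. The median member difference kept its sign throughout, from -0.25 to -0.04 when 1 array was left out and from -0.22 to -0.11 otherwise. Counts of all genes called lower moved by over 1.5 times when KO 8, KO 9, KO 10, KO 21, KO 23, WT 2 or WT 4 was left out (13 to 107) and with array medians subtracted (40). The count of higher genes did so without KO 9 (264) and KO 10 (273). Signs turned in members close to 0. With the mean of a gene's probe sets Mrpl9 was -0.01. With array weights Mrpl9 was -0.01, Mrpl36 -0.01 and Mrpl41 -0.06. With WT 1, WT 2 and KO 8 left out together Mrps21 was -0.03, Mrpl36 -0.12 and Mrpl41 -0.16. Leaving out 1 array gave ranges of -0.06 to 0.38 for Mrpl9, -0.01 to 0.32 for Mrpl45, -0.06 to 0.33 for Mrpl36, -0.06 to 0.25 for Mrpl41, -0.14 to 0.01 for Mrpl51 and -0.35 to 0.03 for Mrpl54. Differences below 0 shrank without KO 21 in Mrps11 (-0.06), Mrpl52 (-0.14) and Mrpl10 (-0.09). The cause was not tested. The differences of Sgpp1 stayed above 0 and under the threshold of the exact test in each fit without 1 array. No paired analysis was possible because the groups share no replicate number. The closeness of signals to background limits what dim probe sets can show, since RMA shrinks differences there.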
